A study of Mus musculus with 17 samples.

Results

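The genes described here are the C/EBP transcription factors Cebpa, Cebpb, Cebpd, Cebpe and Cebpg and the Tribbles pseudokinases Trib1 and Trib2, 7 of the 47643 Ensembl gene rows in the deposited count table. They were picked out by name, through their Ensembl identifiers, with earlier results of these data known. The 17 RNA libraries came from mouse bone marrow, sorted by flow cytometry for cKit, a receptor of haematopoietic stem and progenitor cells, and against lymphoid and erythroid markers. The groups were 3 libraries of URE[delta]/+;Tet2-/- (URE het Tet2 KO below) and 2 of URE[delta]/+;Tet2+/- (URE het Tet2 het), all 5 labelled AML (acute myeloid leukaemia), and 3 each of URE[delta]/+;Tet2+/+ (URE het), URE+/+;Tet2-/- (Tet2 KO), URE+/+;Tet2+/- (Tet2 het) and URE+/+;Tet2+/+ (wild type, WT), all 12 labelled Normal. URE is the upstream enhancer of Spi1, the gene of the myeloid and lymphoid factor PU.1, and URE[delta] is its deletion from 1 allele. Tet2 encodes an enzyme that oxidises methylated cytosine in DNA. The study's title sets clonal haematopoiesis apart from malignant transformation. Every AML library carried both mutations, so leukaemia and the compound genotype cannot be told apart here. The labels do not give the mouse behind each library, so the spread between libraries may be technical. Per-library ages were not given; the series' text calls the controls age-matched.

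C/EBP proteins bind DNA as pairs through a basic leucine zipper. C/EBPα drives the step from multipotent progenitors to granulocyte and monocyte progenitors, C/EBPβ and C/EBPδ serve stress granulopoiesis and inflammation, C/EBPε drives the late granulocyte stages in which secondary granules are made, and C/EBPγ lacks a strong activation domain and pairs with other family members and with ATF4. Trib1 and Trib2 are pseudokinases that bring C/EBPα to the ubiquitin ligase COP1 for degradation, and overexpression of either causes acute myeloid leukaemia in mice.

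Levels are CPM, a gene's counts per 1 M counts of its library, with trimmed-mean factors applied to library size. Gene counts came to between 21.1 and 38.3 M per library. The titles number the libraries 1 to 7 and 8 to 17. Both ranges hold every genotype and the labels do not call them batches, but with a term for the range 26.9% of 19951 genes differed between them in the edgeR test, so values within each range are given where they matter. In 3 AML libraries, replicate 1 of URE het Tet2 het and replicates 2 and 3 of URE het Tet2 KO, genes between 60 and 160 Mb of chromosome 2 stood at 52.0%, 53.3% and 51.9% of their Normal level, against 105% and 90.3% in the other AML libraries and 96.1% to 104% in Normal libraries. Neither Xist nor Y-linked transcripts were seen in replicate 1 of URE het Tet2 het and replicate 2 of URE het Tet2 KO. Tet2 stood at 80.2 to 176 CPM in the 6 libraries of Tet2-/- genotypes and 108 to 176 CPM in the 6 of Tet2+/+ genotypes, and whether the Tet2 allele still makes RNA is not given in the labels. The cKit label fitted the data: Kit stood at 117 to 170.4 CPM in AML libraries and 100 to 187 CPM in Normal libraries. Cd34, another progenitor marker, had a median of 0.545 CPM in AML libraries, against 76.1 CPM in Normal libraries, and of the 5 AML libraries only URE het Tet2 het replicate 2, at 73.6 CPM, reached the Normal range. In bulk RNA of this kind, fewer cells of a type and less RNA per cell cannot be told apart. Counts of AML libraries above or below every Normal library are given below as descriptions. How many of all genes separate to the same degree was not counted.

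Of the 7 genes, Cebpa was higher and Trib2 lower in AML than in Normal libraries. All 7 had enough counts to be tested, and these 2 passed an adjusted p of 0.05 in edgeR's quasi-likelihood test, while 11% of the 19951 genes tested did so, 6.94% as higher and 4.02% as lower. Cebpd, Cebpe, Cebpg, Cebpb and Trib1 did not pass. The median log2 fold change of the 7 genes was -0.40, beside 0.05 for all genes tested. The count was 4 with a term for title range, where 18.4% of genes passed, and 4 in numbers 8 to 17 alone, where 20.9% did. It was 1 without the 3 libraries with low chromosome 2, where 1.85% did, and 1 without the 2 libraries lacking Xist and Y transcripts, where 2.90% did. It was 0 when a sex term was added to the last of these fits, where 0.214% did; in the 15 libraries of that fit all 3 AML libraries and 5 of 12 Normal libraries were read as female.

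**Figure D1:**
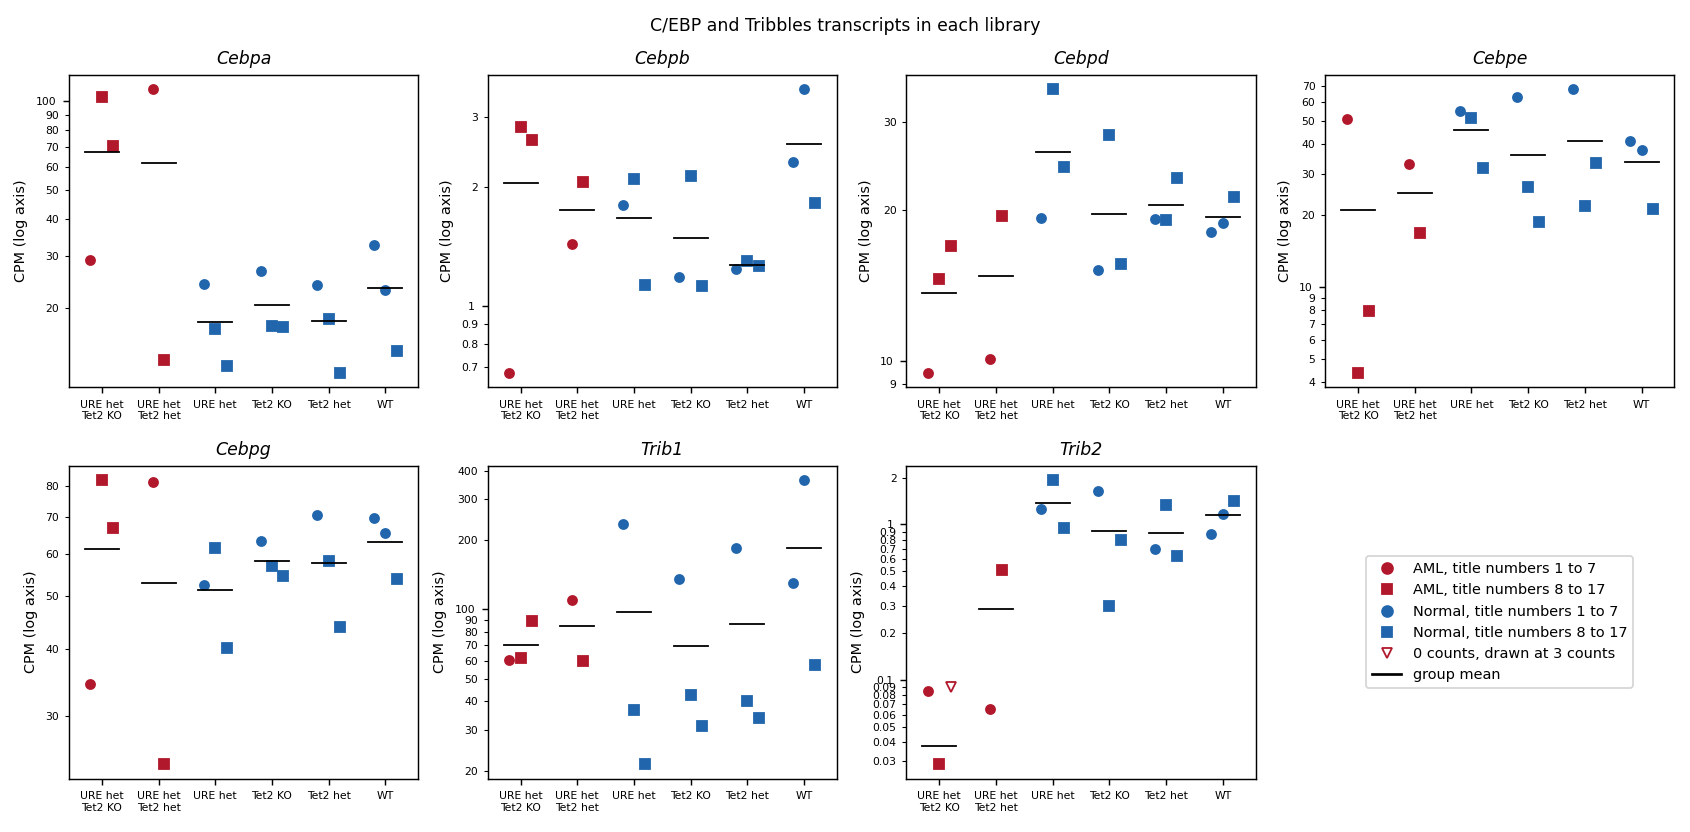
Level of each gene in CPM on a log axis, 1 panel per gene with its own scale. Points are libraries (red AML, blue Normal; circles title numbers 1 to 7, squares 8 to 17), bars are group means, and the open triangle is a library with 0 counts drawn at the level of 3 counts. For Cebpa 3 of 5 red points lie above every blue one, for Trib2 4 of 5 lie below every blue one, and Trib1 in Normal libraries splits by title number.

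Cebpa lies on the plus strand of chromosome 7 (GRCm38, 35119293 to 35121928) as a gene of 2636 exonic bases. Cebpg lies 62719 bases before it on the minus strand (35046422 to 35056573). Trib2 lies on the minus strand of chromosome 12 (15791727 to 15816922). Their promoters are shown because Cebpa and Trib2 are the genes that changed and because Cebpg is the neighbour of Cebpa; each is the 250 bases before the gene's RefSeq start, on the gene's strand, in GRCm38.p6. RefSeq promoters were matched for 4 of the 7 genes. Capitals mark the C/EBP core letters TTGCG and, nearer the start, the TATA box (spelled TATAAA) for Cebpa. For Cebpg they mark the CCAAT box read on the opposite strand.
Cebpa (chr7:35119043-35119292, plus strand): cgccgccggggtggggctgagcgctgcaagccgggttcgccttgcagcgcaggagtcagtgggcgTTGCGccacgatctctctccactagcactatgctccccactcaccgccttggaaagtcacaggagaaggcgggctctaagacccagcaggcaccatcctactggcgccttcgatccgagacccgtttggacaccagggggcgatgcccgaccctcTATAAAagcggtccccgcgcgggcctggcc
Cebpg (chr7:35056567-35056816, minus strand): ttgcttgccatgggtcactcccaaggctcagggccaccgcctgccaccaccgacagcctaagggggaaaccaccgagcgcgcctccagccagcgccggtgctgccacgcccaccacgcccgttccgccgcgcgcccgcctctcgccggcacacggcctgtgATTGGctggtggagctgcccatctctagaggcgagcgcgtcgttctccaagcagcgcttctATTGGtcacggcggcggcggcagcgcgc
Trib2 (chr12:15816786-15817035, minus strand): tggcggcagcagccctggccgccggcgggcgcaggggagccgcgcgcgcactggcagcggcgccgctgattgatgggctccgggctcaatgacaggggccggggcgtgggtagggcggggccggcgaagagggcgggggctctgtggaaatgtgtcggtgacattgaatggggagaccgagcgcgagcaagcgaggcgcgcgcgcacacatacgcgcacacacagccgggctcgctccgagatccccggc

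Each promoter was searched on both strands for the C/EBP core, the TATA box, the CCAAT box and the PU.1 core (spelled GAGGAA), and none of the matches overlap. In the Cebpa window the C/EBP core stood at -185 to -181 and the TATA box at -30 to -25, counted from the start. In the Cebpg window the CCAAT box stood on the other strand at -89 to -85 and at -28 to -24. The Trib2 window held none of the 4. Of 32851 mouse promoters of the same length, 14.5% held the C/EBP core, 12.4% the TATA box, 33.8% the CCAAT box and 23.3% the PU.1 core. The windows were 66.4% G and C for Cebpa, 70.8% for Cebpg and 73.6% for Trib2.

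Cebpa, the factor of granulocyte and monocyte commitment, stood at 29.2, 103 and 70.5 CPM in URE het Tet2 KO libraries and at 110.2 and 13.4 CPM in URE het Tet2 het libraries, against a lowest of 12.1, a median of 17.9 and a highest of 32.7 CPM in the 12 Normal libraries. So 3 AML libraries lay above every Normal library, and replicate 1 of URE het Tet2 KO, like replicate 2 of URE het Tet2 het, lay within the Normal range. The mean was 65.2 ± 43.1 CPM in AML libraries and 20.0 ± 6.16 CPM in Normal libraries (SD, n = 5 and 12). On the log2 scale AML was higher by 1.70 ± 0.37 (SE), or 3.25-fold, with an adjusted p of 0.0101 in edgeR's test. In a fit with an AML by title range term the difference within numbers 8 to 17 was 1.76 ± 0.57 (adjusted p 0.0659). Within 1 to 7 it was 1.60 ± 0.64 (adjusted p 0.182), so in that fit it was of like size in both and passed in neither. In a fit of numbers 8 to 17 alone Cebpa did pass.

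The 3 AML libraries with high Cebpa were the same 3 in which chromosome 2 stood low. Without them Cebpa differed by -0.05 on the log2 scale (adjusted p 0.963, edgeR), and without the 2 libraries lacking Xist and Y transcripts, which are among them, by 0.38 (adjusted p 0.563). With only replicate 1 of URE het Tet2 het left out the difference was 0.59 (adjusted p 0.306). Cebpa itself lies on chromosome 7, where the 142 expressed genes within 10 Mb of it stood at 101% to 110.4% of their Normal level in the 5 AML libraries and 93.4% to 116% in Normal libraries. In the same 3 libraries the summed level of 10 monocyte and macrophage markers was 1625, 2683 and 1776 CPM, against 489 and 360.2 CPM in the other AML libraries and 321 to 568 CPM in Normal libraries. Most of that sum was F13a1, a coagulation factor transcribed in monocytes, at 1266, 2392 and 1372 CPM. It was at 335 and 172 CPM in the other AML libraries and 94.8 to 306 CPM in Normal libraries. The 10 markers did not move together: Vcam1, an adhesion molecule, was also above every Normal library in all 3. Ccr2, a chemokine receptor of monocytes, was below every Normal library in them, at 36.6, 17.1 and 49.4 CPM against 55.5 to 158 CPM. The other AML libraries lay below that range of Ccr2 too, at 47.0 and 41.3 CPM. The macrophage marker C1qa was near 0 in AML and in Normal libraries alike, with medians of 0 and 0.0335 CPM. The part of chromosome 2 and of these markers in the Cebpa result was not tested.

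Cebpb, a factor of emergency granulopoiesis, stood at 0.676, 2.84 and 2.63 CPM in URE het Tet2 KO libraries and 1.43 and 2.06 CPM in URE het Tet2 het libraries, against 1.12 to 3.54 CPM in Normal libraries. Only URE het Tet2 KO replicate 1 lay outside the Normal range, below it. The log2 difference was 0.17 ± 0.32 (adjusted p 0.781, edgeR). Cebpb is on chromosome 2 (167688915 to 167690418), beyond the low stretch; genes beyond 160 Mb stood at 107%, 106% and 103% of Normal in the 3 libraries named above.

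Cebpd, which is induced by cytokines and in acute inflammation, stood at 9.47, 14.6 and 17 CPM in URE het Tet2 KO libraries and 10.1 and 19.5 CPM in URE het Tet2 het libraries, against a lowest of 15.2, a median of 19.2 and a highest of 35.0 CPM in Normal libraries. AML libraries lay low, 3 of 5 below every Normal library and 2 within its range. The log2 difference of -0.58 ± 0.22 did not pass (adjusted p 0.103, edgeR); with a term for title range it was -0.62 and passed (adjusted p 0.018).

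Cebpe, the factor of late granulocyte genes, stood at 50.7, 4.36 and 7.92 CPM in URE het Tet2 KO libraries and 32.9 and 16.9 CPM in URE het Tet2 het libraries, against a lowest of 18.8, a median of 35.5 and a highest of 68.1 CPM in Normal libraries. The 3 AML libraries below every Normal library were those numbered 8 to 17, and both AML libraries numbered 1 to 7 lay within the Normal range. Over all libraries the log2 difference was -0.77 ± 0.50 (adjusted p 0.357, edgeR). Within title numbers 8 to 17 the groups did not overlap, at 4.36 to 16.9 CPM in AML and 18.8 to 51.2 CPM in Normal libraries. How many of all genes separate in this way was not counted. The log2 difference there was -1.49 ± 0.36 (adjusted p 0.0227, edgeR), where 11.3% of genes passed. Within numbers 1 to 7 it was -0.32 ± 0.41 (adjusted p 0.705), and the test of the difference between the ranges gave -1.17 ± 0.52 with an adjusted p of 0.378.

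Cebpg, the partner of ATF4, stood at 34.4, 82.1 and 67.0 CPM in URE het Tet2 KO libraries and 81.3 and 24.4 CPM in URE het Tet2 het libraries, against 40.1 to 70.8 CPM in Normal libraries. AML libraries scattered to both sides, 2 above and 2 below every Normal library. The mean was 57.9 ± 26.9 CPM in AML libraries and 57.5 ± 9.45 CPM in Normal libraries (SD, n = 5 and 12), with a log2 difference of -0.01 ± 0.25 (adjusted p 0.983, edgeR). Without the 3 libraries with low chromosome 2 it was -1.03 and passed (adjusted p 0.0358); only 1 library of each compound genotype was then left. Across the 17 libraries the log2 levels of Cebpg and its neighbour Cebpa had a Pearson r of 0.62, given as a description.

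Per kilobase of exon, Cebpe was the most abundant of the C/EBP transcripts in Normal libraries and Cebpa in AML libraries. In AML libraries the means were 24.7 ± 16.3 CPM per kb for Cebpa, 18.2 ± 15.5 for Cebpe, 10.3 ± 4.78 for Cebpg, 3.78 ± 1.16 for Cebpd and 1.28 ± 0.590 for Cebpb (SD, n = 5). In Normal libraries they were 31.5 ± 13.5 for Cebpe, 10.2 ± 1.68 for Cebpg, 7.58 ± 2.34 for Cebpa, 5.73 ± 1.5 for Cebpd and 1.16 ± 0.474 for Cebpb (SD, n = 12). The ranges over AML libraries of Cebpa, Cebpe and Cebpg overlap one another, so their order there is not beyond the spread. In Normal libraries the range of Cebpe, 15.2 to 54.9 CPM per kb, lay above those of Cebpa, 4.59 to 12.4, and Cebpg, 7.13 to 12.6.

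The make-up of the family stood farthest from Normal in the same 3 AML libraries. Cebpa was 61.9%, 52.1% and 48.4% of the summed C/EBP level per kb in replicates 2 and 3 of URE het Tet2 KO and replicate 1 of URE het Tet2 het. It was 18.2% and 17.1% in the remaining AML libraries and between 9.31% and 19.2% in Normal libraries. Cebpe made up 5.59%, 12.4% and 30.7% of the sum in those 3, against 41.7% to 66.5% in Normal libraries, and 66.9% and 46.0% in the remaining AML libraries. Shares depend on one another: in replicate 1 of URE het Tet2 het the Cebpe level itself, 32.9 CPM, lay within the Normal range.

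**Figure D2:**
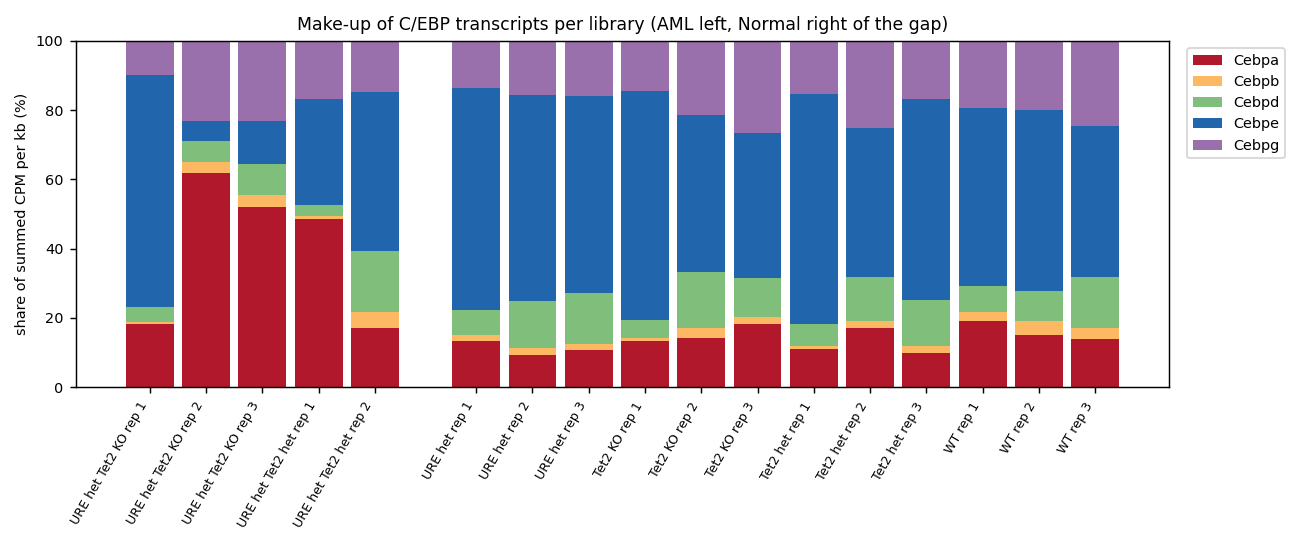
Share of each C/EBP gene in the summed C/EBP level (CPM per kb of exon) of each library, in percent; AML libraries are left and Normal libraries right of the gap. Cebpa takes 48.4% to 61.9% in 3 AML libraries and 9.31% to 19.2% in Normal libraries.

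Trib2, a Tribbles pseudokinase that lowers C/EBPα protein, had few counts in every library. There were 2, 1 and 0 counts in URE het Tet2 KO libraries and 2 and 24 counts in URE het Tet2 het libraries, against 9 to 58 counts in Normal libraries. That is 0.0846, 0.0287 and 0 CPM, and 0.065 and 0.51 CPM, against a lowest of 0.299, a median of 1.06 and a highest of 1.93 CPM in Normal libraries. All but URE het Tet2 het replicate 2 of the 5 AML libraries lay below every Normal library. AML was lower by 9.97-fold, a log2 difference of -3.32 ± 0.63 (adjusted p 0.00517, edgeR).

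The Trib2 difference did not rest on 1 library: leaving out each in turn gave -4.39 to -2.94 with adjusted p-values of 0.00183 to 0.0265. It was -2.36 and did not pass without the 3 libraries with low chromosome 2 (adjusted p 0.102). Within title numbers 8 to 17 it was -2.98 (adjusted p 0.03), where 11.3% of genes passed, and within 1 to 7 it was -4.15 (adjusted p 0.0743), where 2.82% did. The summed level of 8 mast cell, basophil and eosinophil markers was 19.6 to 100.5 CPM in AML libraries, all below the 102 to 276 CPM of Normal libraries. The highest of the AML values belonged to URE het Tet2 het replicate 2, the library with the most Trib2; their part in the Trib2 result was not tested.

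Trib1, the other Tribbles member, stood at 60.3, 61.8 and 89.2 CPM in URE het Tet2 KO libraries and 109.6 and 59.7 CPM in URE het Tet2 het libraries, and spanned 21.3 to 364 CPM in Normal libraries. All AML libraries lay within the Normal range, and the log2 difference was -0.40 ± 0.60 (adjusted p 0.73, edgeR). That range joins 2 groups of Normal libraries that do not overlap, at 21.3 to 57.4 CPM in numbers 8 to 17 and 130.1 to 364 CPM in numbers 1 to 7. Numbers 8 to 17 against 1 to 7 gave -2.35 ± 0.29 on the log2 scale in Normal libraries (adjusted p 0.000208), where 21.5% of genes passed, while AML libraries of the ranges differed by -0.21 ± 0.45 (adjusted p 0.828).

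Within numbers 8 to 17 the AML libraries had 61.8, 89.2 and 59.7 CPM of Trib1, above all 7 Normal libraries, a difference of 0.91 ± 0.33 (adjusted p 0.091, edgeR). Within numbers 1 to 7 they had 60.3 and 109.6 CPM, below all 5 Normal libraries, a difference of -1.23 ± 0.42 (adjusted p 0.129). The share of all genes that separate so in either range was not counted. The change of the difference between ranges was 2.14 ± 0.55, with p 0.00212 in edgeR's test and 0.171 after adjustment, while 0.175% of genes passed. A fit of numbers 8 to 17 alone gave 0.79 with an adjusted p of 0.0305, where 20.9% of genes passed. No single direction of Trib1 in AML therefore holds over both ranges.

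**Figure D3:**
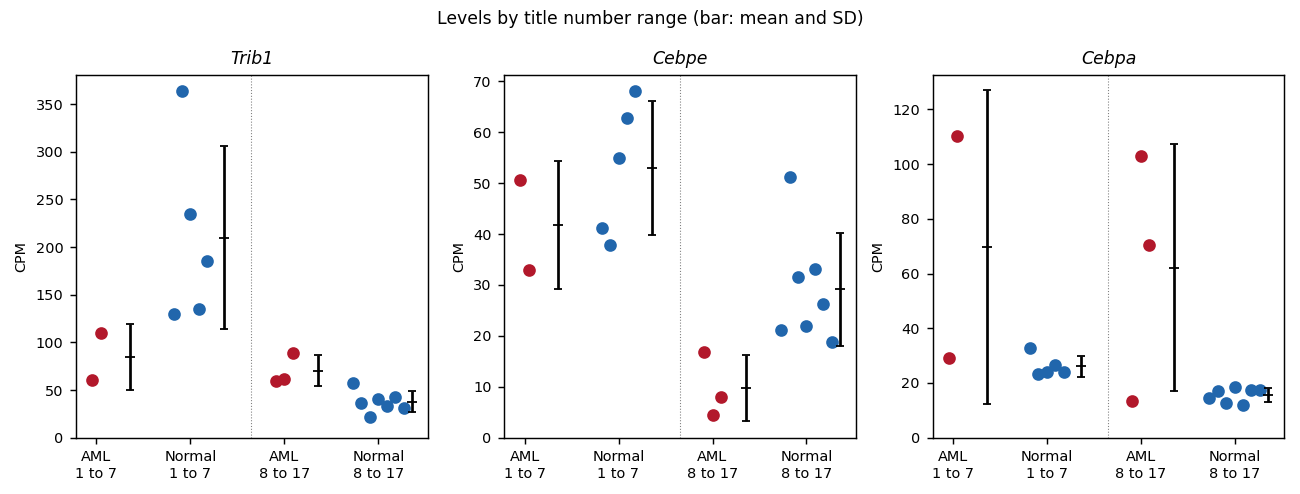
Levels of Trib1, Cebpe and Cebpa in CPM by title number range, AML (red) left of Normal (blue) in each; points are libraries and bars the mean and SD. For Trib1 the AML libraries lie below the Normal ones in numbers 1 to 7 and above them in numbers 8 to 17.

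**Figure D4:**
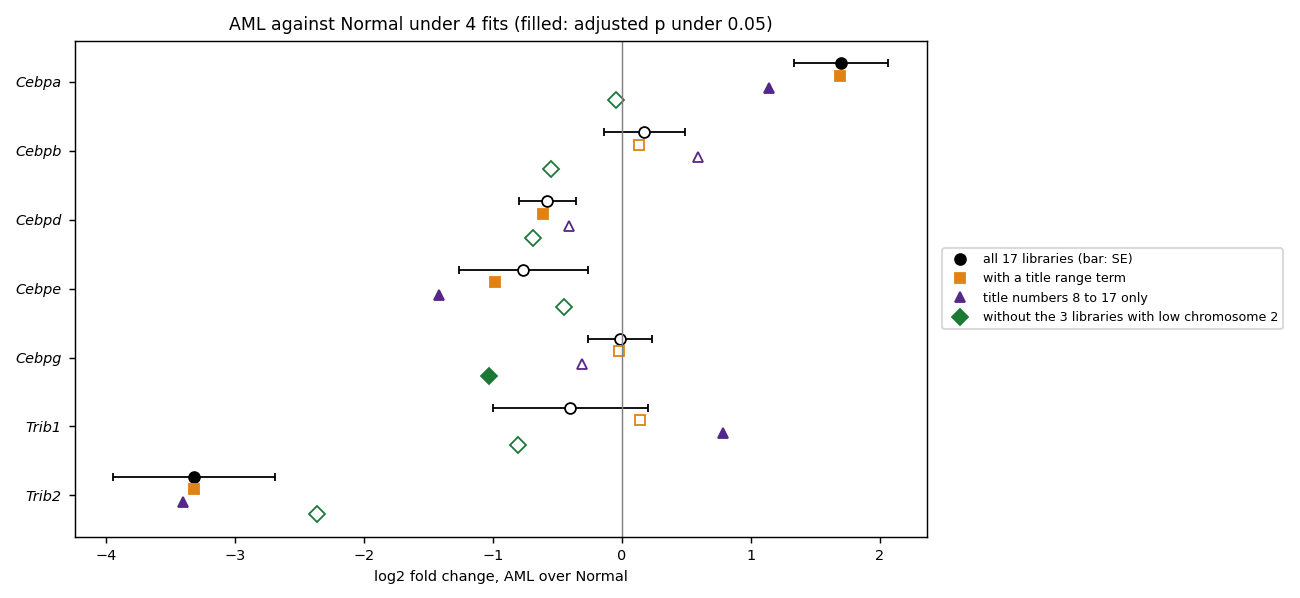
Log2 fold change of each gene, AML over Normal, in 4 edgeR fits; the bar is the SE of the fit of all libraries and filled symbols have an adjusted p under 0.05. Cebpa is at -0.05 and Trib2 at -2.36 without the 3 libraries with low chromosome 2, and Trib1 changes sign in numbers 8 to 17.

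Comparisons of each compound mutant with its single mutants asked what adding the second lesion changed. They share the compound libraries with one another and with the comparison of AML and Normal. In URE het Tet2 KO against Tet2 KO libraries 1 of the 7 genes passed, Trib2, while 0.977% of all genes did. In URE het Tet2 KO against URE het libraries 1 passed, again Trib2, while 0.356% did. For URE het Tet2 het no member passed against Tet2 het or against URE het, where 0% of genes passed. In edgeR 1 and 3 members had an unadjusted p under 0.05, as did 2652 and 2634 of the 19951 genes tested. In the DESeq2 and voom fits no member passed either, where 3.20% and 3.15% of genes passed with DESeq2 and 0% with voom.

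Trib2 summed to 3 counts over the 3 URE het Tet2 KO libraries, against 79 over the Tet2 KO libraries and 125 over the URE het libraries. The level was 3.74% of that in Tet2 KO (95% exact interval of counting 0.755% to 11.3%) and 2.41% of that in URE het (0.491% to 7.21%); these intervals cover counting error only. The edgeR differences were -4.59 ± 0.96 against Tet2 KO (adjusted p 0.0405) and -5.18 ± 0.96 against URE het (adjusted p 0.0417). Leaving out 1 library at a time moved the adjusted p between 0.00754 and 0.155 and between 0.00565 and 0.173. Trib2 did not pass in 14 of 17 such fits against Tet2 KO or in 13 of 17 against URE het, so neither call held in most of them. In URE het Tet2 het libraries the differences were -1.57 ± 0.86 against Tet2 het (adjusted p 0.453) and -2.20 ± 0.87 against URE het (adjusted p 0.3). Between the compound genotypes, URE het Tet2 KO minus URE het Tet2 het was -2.99 ± 1.02 (adjusted p 0.305), where 0.0100% of genes passed. No member passed there in edgeR, DESeq2 or voom, where 1.79% of genes passed with DESeq2 and 0% with voom. In edgeR 1 member had an unadjusted p under 0.05, as did 2344 of the 19951 genes tested.

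Cebpa was 1.72 ± 0.61 higher on the log2 scale in URE het Tet2 KO than in Tet2 KO libraries (adjusted p 0.172, edgeR) and 1.91 ± 0.61 higher than in URE het libraries (adjusted p 0.149), without passing. In URE het Tet2 het libraries it differed by 1.77 ± 0.65 from Tet2 het (adjusted p 0.261) and by 1.78 ± 0.65 from URE het (adjusted p 0.264). The values of the URE het Tet2 het libraries, 110.2 and 13.4 CPM, lie on either side of every other genotype's mean. In voom with quality weights the URE het Tet2 KO differences of Cebpa were 2.04 (adjusted p 0.00147) and 2.18 (adjusted p 0.00212), and 18.4% and 17.1% of all genes passed there.

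In the single mutants none of the 7 genes passed against WT. Log2 differences ran from -0.91 (Trib1) to 0.46 (Cebpe) in URE het, from -1.09 (Trib1) to 0.30 (Cebpe) in Tet2 het and from -1.40 (Trib1) to 0.11 (Cebpe) in Tet2 KO libraries, each with an adjusted p of 1. In edgeR none of the 7 had an unadjusted p under 0.05 in these 3 comparisons. Of the 19951 genes tested 753, 585 and 512 did, and 0% passed. None of the 7 passed with DESeq2, where 0.0352%, 0.00503% and 0.0603% of genes passed. None passed with voom, where 0.421%, 0% and 0.451% did. WT holds 2 of its 3 libraries in numbers 1 to 7, where Trib1 was high, and the single mutants hold 1 of 3 each. The interaction of URE and Tet2 asks whether the compound mutant departs from the sum of the single lesions. For Tet2 KO it was 2.10 ± 0.84 for Cebpa (adjusted p 0.544) and -4.84 ± 1.19 for Trib2 (adjusted p 0.35). For Tet2 het it was 2.15 ± 0.88 for Cebpa (adjusted p 0.492) and -1.83 ± 1.10 for Trib2 (adjusted p 0.629), and 0% of genes passed in either interaction. Of the 7 genes 2 and 1 had an unadjusted p under 0.05 in edgeR, as did 1618 and 1836 of the 19951 genes tested. For Tet2 KO 1 passed with DESeq2, where 0.806% of genes did, and 3 with voom, where 9.15% did. For Tet2 het none passed with either, where 0.539% of genes passed with DESeq2 and 0% with voom.

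Genes that work with the Tribbles proteins and the C/EBP factors were read from 7 lists in AML against Normal libraries. Each count of passing genes is given beside the median log2 difference, which was 0.05 over all genes tested. Of all genes tested, 6.94% passed as higher and 4.02% as lower. In lists of 4 to 14 genes, 1 or 2 rising or falling genes cannot be set apart from these shares. Among 13 Tribbles partners, which include the COP1 ligase complex and the MEK and ERK kinases, 1 fell and the median was -0.05. It was Cop1, the ligase that Tribbles proteins recruit, at 108 ± 26.9 CPM in AML and 169 ± 20.2 CPM in Normal libraries (SD, n = 5 and 12), a log2 difference of -0.66 ± 0.16 (adjusted p 0.0163, edgeR). Of the 5 AML libraries 4 lay below all Normal libraries.

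Among 10 further genes, bZIP partners of C/EBP factors together with Cebpz, which shares the name but has no leucine zipper, 1 rose and 1 fell, with a median of -0.05. Atf5, a stress-response factor, rose by 0.91 ± 0.22 (adjusted p 0.016, edgeR). Atf2, a partner that binds cAMP response elements, was lower in 5 of 5 AML libraries than in any Normal library, by -0.87 ± 0.18 (adjusted p 0.00764); it lies on chromosome 2 within the low stretch. Without the 3 libraries in which that stretch was low Atf2 differed by -0.57 (adjusted p 0.0892) and Atf5 by 0.40 (adjusted p 0.5).

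Among 10 factors that bind an enhancer of Cebpa in progenitors, 1 rose and 1 fell, with a median of -0.44. Gfi1, a repressor needed for neutrophil development, rose by 1.31 ± 0.20 (adjusted p 0.00144, edgeR) and was higher in 4 of 5 AML libraries than in any Normal library. Meis1, a stem cell homeobox factor, fell by 2.92 ± 0.89 (adjusted p 0.0485). Spi1 itself was at 35.0 ± 37.0 CPM in AML and 80.4 ± 33.4 CPM in Normal libraries (SD, n = 5 and 12), and its difference of -1.25 ± 0.52 did not pass (adjusted p 0.135). Without the 3 libraries with low chromosome 2 the Spi1 difference was -0.48, with 1 library of each compound genotype left.

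Among 14 myeloid genes driven by C/EBP factors, 2 rose and 1 fell, with a median of 0.09. Gfi1 is in this list too. Ctsg, the azurophil granule protease cathepsin G, rose by 0.99 ± 0.27 (adjusted p 0.0311, edgeR), and Lyz2, lysozyme of granulocytes and macrophages, fell by 1.55 ± 0.36 (adjusted p 0.0145).

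The list of secondary granule and late neutrophil genes, only some of them textbook targets of C/EBPε, gave the largest count. Of 12, 5 fell and none rose, with a median of -1.43. S100a8 was lower in 5 of 5 AML libraries than in any Normal library, at 5313 ± 1519.9 CPM in AML and 14235 ± 6184 CPM in Normal libraries (SD, n = 5 and 12), a difference of -1.42 ± 0.32 (adjusted p 0.0123, edgeR). Camp, the cathelicidin, fell by 1.40 ± 0.35 (adjusted p 0.0197). S100a9, the partner of S100a8, fell by 1.72 ± 0.44 (adjusted p 0.0214). Ltf, lactoferrin, fell by 2.60 ± 0.73 (adjusted p 0.0336), and Mmp8, neutrophil collagenase, fell by 2.72 ± 0.81 (adjusted p 0.0436).

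The count of falling genes in this list was 7 of 12 with a term for title range, where 18.4% of all genes passed, and 10 of 12 in numbers 8 to 17 alone, where 20.9% did. It was 0 of 12, with a median of -1.15, without the 3 libraries with low chromosome 2, where 1.85% did. The count therefore moved with the share of all genes passing, which was 11% in the fit of all libraries. The 10 markers of mature neutrophils, which share 7 genes with this list, summed to 11759 to 38761 CPM in AML libraries and 26436 to 93619.9 CPM in Normal libraries. Their part in the result was not tested.

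Among 4 genes that C/EBPα holds down, 1 fell, and the median was -1.23. Mycn, a growth-promoting relative of Myc, fell by 2.94 ± 0.88 (adjusted p 0.0443, edgeR). Mycn was at 0 to 9.36 CPM in AML libraries and 1.82 to 8.04 CPM in Normal libraries; 4 AML libraries lay below and 1 above every Normal library. Myc differed by 0.49 and did not pass (adjusted p 0.0908). Among 14 genes of the amino acid response, which ATF4 drives with C/EBPγ, 2 fell and the median was 0.01. Mthfd2, of mitochondrial folate metabolism, fell by 0.94 ± 0.22 (adjusted p 0.0151), and Psat1, of serine synthesis, fell by 0.63 ± 0.15 (adjusted p 0.0164).

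Of the genes named from these lists, Gfi1 and Lyz2 were the ones that passed without the 3 libraries with low chromosome 2; Cop1 then differed by -0.51 (adjusted p 0.164) and Meis1 by -1.70 (adjusted p 0.0557), with 2 AML libraries left. None of the list genes passed in the fit of 15 libraries with a sex term.

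**Figure D5:**
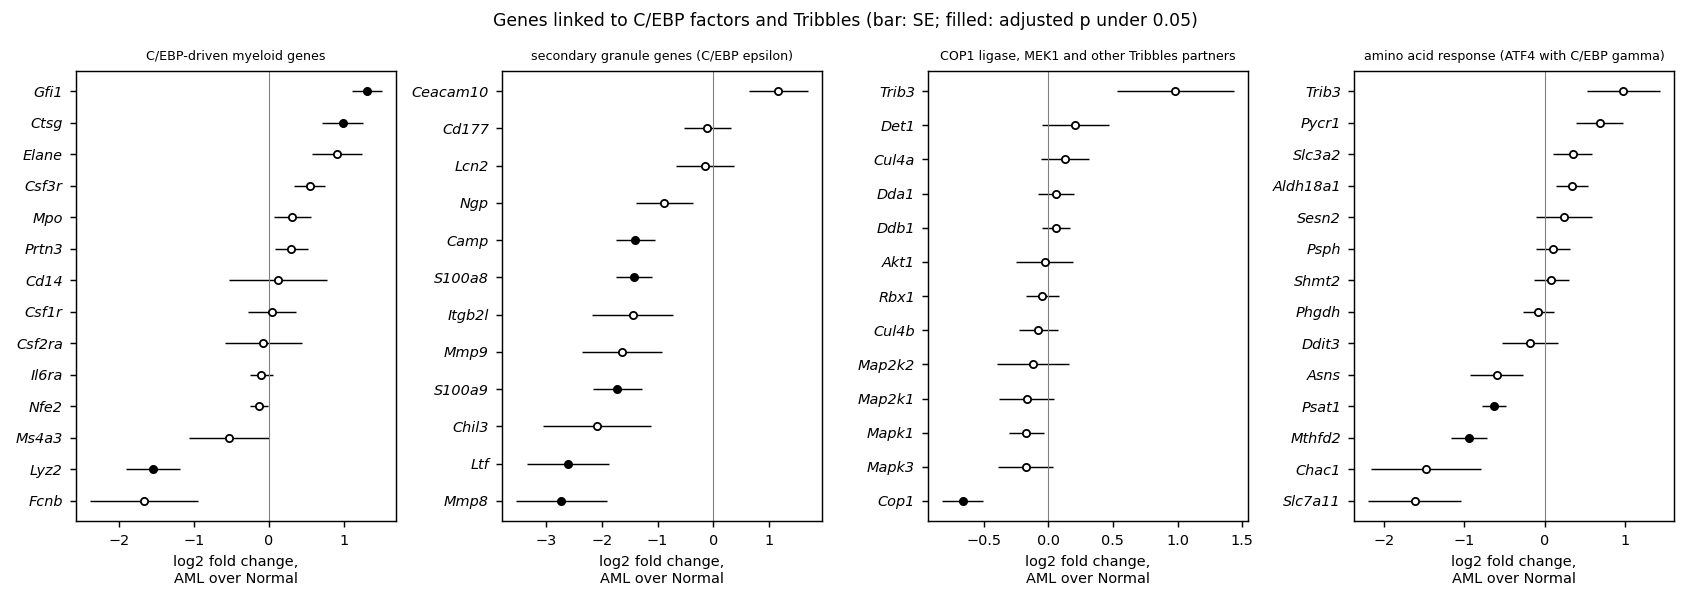
Log2 fold change, AML over Normal, with SE, of each gene in 4 of the lists; filled symbols have an adjusted p under 0.05 in edgeR's test. In the secondary granule panel 5 of 12 genes are filled, all lower in AML.

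The genes whose log2 level followed each member most closely over the 17 libraries were found among 9870 protein-coding genes, and are given as a description. For Cebpa they were Cask, Aplp2 and Gsr, with Pearson r of 0.97, 0.95 and 0.94. For Trib2 they were Car1, Prg2 and Epx (r of 0.93 each), of which Car1 is a carbonic anhydrase of red cell precursors and Prg2 and Epx are eosinophil granule proteins. Prg2 lies on chromosome 2, part of which stood low in some AML libraries. For Cebpe they were Lin28a, Coro1a and Tbc1d10b (0.97 each).

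For Trib1 they were Mafk, Bsdc1 and Fosl2, with r of 0.95, 0.94 and 0.94. For Cebpg they included Cox7a2l and Mrfap1, with 0.89 and 0.87. For Cebpd they were Abracl, Tsg101 and Chtf8, with 0.88 each, and for Cebpb Zfp36l2, Akr1e1 and Cyb5a, with 0.84, 0.80 and 0.78. Libraries share a title range and, in AML, a disease state, and these r values include both. Among the members themselves the strongest relation was between Cebpa and Trib2, with r of -0.76 over 17 libraries; between Cebpe and Trib2 it was 0.61.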

How the data were processed

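The authors deposited raw counts of polyadenylated RNA per feature, 1 column per library and not normalized. Per the submitters' processing notes reads were aligned with STAR to GRCm38; the versions, the counting tool, the annotation and the strand setting are not given in the sources used here. Cebpa, Cebpb, Cebpd, Cebpg and Trib2 overlap other annotated genes, so reads could be shared there. Gene rows were matched to GENCODE vM21 by identifier without version; of the 7 members, 3 had the same version. Rows named by a gene and enh, 48361 in all, have no coordinates in the sources used here and stayed out of the tests and library sizes.

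Genes passing filterByExpr (minimum count 10, total 15) went into a robust quasi-likelihood F test of edgeR 4.0.16 (TMM, R 4.3.3) on 1 mean for each of 6 genotypes over 17 libraries, with Benjamini-Hochberg adjustment over 19951 genes in each of 11 comparisons at 0.05, two-sided. AML against Normal is, in log2, the compound genotypes' mean minus that of the 4 Normal genotypes. The SE is the log2 difference over the square root of F. Alternatives were DESeq2 1.42.0 and its size factors, limma 3.58.1 voom with quality weights, no filter, non-robust spread, the compared groups alone, each library left out, a title range term, numbers 8 to 17 alone, and leaving out the 3 libraries with low chromosome 2. Chosen after seeing the data were leaving out the 2 libraries lacking Xist and Y transcripts, the same with a sex term, an AML by title range term, and the list counts under these settings. The code was tested on simulated data.

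Members, lists and tests were chosen with earlier results of these data known. Named genes were all members, up to 4 passing genes of each list by smallest p (and the fifth secondary granule gene, added after its value was seen), and for each member the 3 protein-coding genes of highest Pearson r, with a mean log2 CPM of at least 1; 1 of these genes is not reported here. The labels share no replicate numbers, and no 2 libraries held identical counts. At 21.1 to 38.3 M gene counts per library, counting error is small for all members but Trib2 and Cebpb. Trib2 had 0 to 58 counts per library and Cebpb 16 to 115. Promoter sequences are from RefSeq.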

Additional observations from a re-analysis of the deposited data

Results flagged for a closer look

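Among the 5 AML libraries URE het Tet2 het replicate 2 had 0.51 CPM of Trib2, and its gap to the next library, 0.834 of the whole range, was above the critical value of 0.71 for 5 samples. For normally distributed values chance alone marks about 1 in 20 groups. The remaining AML libraries held 0 to 2 counts of Trib2, so that rate need not hold here. Both ends of all 7 members were looked at, and no other member was marked in the AML group.

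The AML minus Normal difference of Trib1 was 2.139 higher on the log2 scale in title numbers 8 to 17 than in numbers 1 to 7, with an unadjusted p of 0.00212 and an adjusted p of 0.171 in edgeR.

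Among the rows named by a gene and enh, whose coordinates are not given in the sources used here, 1 row named for Cebpg stood at 1.14, 2.44 and 4.02 CPM in URE het Tet2 KO libraries and 2.73 and 2.02 CPM in URE het Tet2 het libraries, against 0.0733 to 1.63 CPM in Normal libraries. In 4 of 5 AML libraries it was above every Normal library, the highest such count among member rows with at least 170 counts. The other Cebpg rows of that depth had 2 and 0 AML libraries above every Normal library. The share of all 48361 such rows that separate in this way was not counted. Cebpg itself did not differ in this way.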

How the results depend on the processing

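Of the 7 members, 2 passed in AML against Normal in the fit of all libraries. The count was 4 with a title range term, 4 in numbers 8 to 17 alone, 1 without the 3 libraries with low chromosome 2, 1 without the 2 libraries lacking Xist and Y transcripts, 0 when these were left out and a sex term added, and 1 to 3 when each library was left out. Genes passing in the same comparison numbered 2188 in the fit of all libraries and 3664, 4307, 383, 610, 45 and 845 to 3998 in those same settings, in that order. In URE het Tet2 KO against Tet2 KO, where 1 member passed, the count was 3 with voom (18.4% of all genes passed), 4 in numbers 8 to 17 (17.1%), 0 without the 3 libraries (1.46%), with the sex term (0.566%) and with only the groups compared (0.137%), and 0 to 3 over single omissions (0.0152% to 9.05%). Against URE het, where 1 passed, it was 2 with DESeq2 (5.09%), 4 with voom (17.1%), 4 in numbers 8 to 17 (18.2%), 0 in the same 3 settings (0.714%, 0.128% and 0.0890%), and 0 to 3 over single omissions (0% to 9%). For URE het Tet2 het, counts of 0 became at most 1 over single omissions against Tet2 het (0% to 5.79%) and against URE het (0% to 4.06%). So did that of the compound genotypes against each other (0.00505% to 4.79%), which reached 4 in numbers 8 to 17 (23.6%). The interaction of URE and Tet2 KO gave 1 with DESeq2 (0.806%), 3 with voom (9.15%) and 2 in numbers 8 to 17 (3.51%).

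Directions that turned, on the log2 scale, were as follows. Without the 3 libraries Cebpa was -0.049 and Cebpb -0.55 in AML against Normal, and Cebpe was 0.48 against Tet2 KO and 0.10 against URE het in URE het Tet2 KO. Cebpb was -0.15 with the sex term and -0.75 within numbers 1 to 7, and Cebpg 0.016 within numbers 8 to 17. Trib1 was 0.39 with voom, 0.14 with a title range term, 0.79 in numbers 8 to 17 alone and 0.91 in that range with the range term. Cebpa in URE het Tet2 het against Tet2 het and against URE het was -0.19 and -0.15 in numbers 8 to 17, -0.49 and -0.49 without the 3 libraries, -0.44 and -0.43 without the 2 libraries, and -0.50 and -0.61 with the sex term. Over single omissions Cebpb ran from -0.01 to 0.38, Cebpg from -0.58 to 0.29, Trib1 from -0.66 to 0.036, and Cebpa in those pairs from -0.44 to 2.59 and from -0.43 to 2.60. The causes were not tested.

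Leaving out the 3 libraries leaves 1 library of each compound genotype, whose spread is assumed to be that of the other groups. Trib2 stayed lower in AML in all 29 alternatives, at adjusted p-values of up to 0.18; it missed 0.05 in 3 of them. Cebpa kept its call in 23 of 29. With 0 to 2 counts of Trib2 in 4 AML libraries, levels there are not resolved. No paired analysis was possible because the labels share no replicate numbers.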

Other observations

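Rows named by a gene and enh exist for every member but Cebpd: 4 for Cebpa, 2 for Cebpb, 1 for Cebpe, 6 for Cebpg, 20 for Trib1 and 15 for Trib2. The 15 Trib2 rows held 9 counts in all over 17 libraries. Of the Cebpa rows, 1 held at least 170 counts in all, and it stood at 0.0845, 7.37 and 8.86 CPM in URE het Tet2 KO libraries and 3.67 and 2.02 CPM in URE het Tet2 het libraries, against a lowest of 0.123, a median of 0.326 and a highest of 3.73 CPM in Normal libraries. URE het Tet2 KO replicates 2 and 3 lay above every Normal library and replicate 1 below every one. The highest Normal value belonged to WT replicate 3. These rows were not tested.

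Marker sums of further cell types were lower or spread wider in AML libraries. B cell markers summed to 1.45 to 8.41 CPM in AML libraries and 7.36 to 27.9 CPM in Normal libraries, T and NK cell markers to 19.1 to 92.7 and 64.0 to 155, erythroid markers to 1.97 to 19.2 and 3.83 to 60.3, and megakaryocyte markers to 1.78 to 36.1 and 16.7 to 36.7. Stromal and endothelial markers summed to 23.8 to 152 CPM in AML libraries and 40.5 to 67.7 CPM in Normal libraries, and the 8 progenitor markers to 547 to 1167 and 636 to 949.5. No marker was at 0 in all 17 libraries; Ppbp, Cdh5 and Col3a1 were at 0 in every AML library.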
